A study of Mus musculus with 12 samples.

Results

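The genes described here encode factors that shorten the poly(A) tail or remove the cap of mRNA. They were chosen by gene symbol for their known function, with earlier results of these data known, and are 10 of the 24259 genes in the authors' table. The CCR4-NOT deadenylase is represented by its scaffold *Cnot1*, by its catalytic subunits *Cnot6*, *Cnot6l* and *Cnot7*, and by *Btg4*, the adaptor that brings it to mRNA in oocytes. *Pan2* and *Pan3* encode the PAN2-PAN3 deadenylase, *Zfp36l2* encodes an RNA-binding protein that recruits CCR4-NOT to AU-rich mRNAs, and *Dcp1a* and *Dcp2* encode the decapping activator and the decapping enzyme. *Lsm14b*, which is not among the 10 genes, encodes an RNA-binding protein of the family that associates with decapping and translational control factors.

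A fully grown oocyte stops transcription and lives on stored mRNA until the embryonic genome is switched on. Many stored mRNAs are kept with short tails and little translation, and lengthening of the tail through elements in the 3′ end goes with their later translation. During meiotic maturation and after fertilization a large share of maternal mRNA is deadenylated, decapped and degraded, and the mRNAs for BTG4, CNOT7, CNOT6L, DCP1A and DCP2 are themselves known to be stored in the oocyte.

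The study compared oocytes at the germinal vesicle (GV) stage, before meiosis resumes, from wild-type (WT) mice and from mice homozygous for a reporter-tagged insertion in *Lsm14b* (tm1a allele, KO). Both genotypes were on the C57BL/6J background, were 3 weeks old and had received 5 IU of PMSG, a gonadotropin that stimulates follicle growth, 46 h before collection. About 1500 oocytes were lysed with cycloheximide, which holds ribosomes on mRNA, and the lysate was separated on a sucrose gradient into a pool of light fractions (1 to 10, RNP pool) and a pool of heavy fractions (11 to 28, polysome pool). RNA of each pool was amplified by Smart-seq2, and 3 libraries were sequenced for each genotype and pool, 12 in all. The WT polysome, WT RNP, KO polysome and KO RNP groups therefore share age, background, hormone and inhibitor. They differ in the allele or in the fractions pooled. The insertion was present in every cell of the KO mice, so the oocyte was not the only cell without the gene. In the paper, LSM14B protein was detected in oocytes alone, with none in granulosa cells or other tissues tested.

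Levels are FPKM, fragments per kilobase of transcript scaled to the mapped fragments of the library, so a value is relative to the other RNA of its own library. The polysome and RNP pools were sequenced separately, and a ratio of pools is a ratio of relative levels, not a share of the mRNA on ribosomes. In such bulk libraries a smaller number of cells with an mRNA and less of it per cell cannot be told apart. The values are levels of amplified RNA, and the part of poly(A) tail length in how well an mRNA was amplified was not tested. A lower value may therefore not be less mRNA. The labels do not say for these libraries whether the replicates were separate animals, separate pools or amplifications of 1 lysate, and the paper speaks of 3 samples and, for its data in general, of independent experiments. Each p therefore sets a group difference against the spread between libraries, and what that spread stands for is not known. With 3 libraries against 3, the smallest exact p is 0.1.

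The genotype labels were checked with *Lsm14b*. The polysome pool held 11.3, 15.3 and 13.2 FPKM in WT and 0.260, 0 and 0.0876 FPKM in KO. The RNP pool held 34.6, 29.3 and 27.4 FPKM in WT and 0.893, 0.0627 and 0 FPKM in KO. Each KO library was far below each WT library of its pool, and the WT RNP libraries were above the WT polysome libraries. The tissue label was checked with 12 oocyte markers, which were all detected in each of the 4 groups. *Gdf9*, an oocyte growth factor, was the most abundant of them, with a mean of 15413 FPKM in the WT polysome pool and 17337 FPKM in the KO polysome pool.

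Depth was estimated from the steps between the lowest FPKM values, because the table holds no counts. The estimates lay between 4.68 and 7.87 M fragments (M, mega) per library, with a median of 6.51 M. *Btg4*, *Cnot7* and *Dcp1a* were well covered, with lowest estimates of 2350, 1499 and 2414 fragments in any library. *Dcp2*, *Cnot1* and *Cnot6* were thinly covered, with lowest estimates of 123, 100 and 18 fragments, and *Zfp36l2* had 0 to 59 fragments. A library of the KO polysome pool, replicate 2, stood apart. Its 10 most abundant genes held 34.7% of its summed FPKM, against 11.6% to 14.7% in the other libraries. A single entry, *Mir300*, was listed at 170809 FPKM in it, where its summed FPKM was 698228, against 440127 to 539151 in the others. The top gene of each other library was *Gdf9* or *Zbed3*. Whether this library differs beyond that entry was not tested, and many of the results that use it are also given without it.

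Across the 12 libraries *Btg4* was the most abundant of the 10 genes, with a mean of 849 FPKM and rank 69 among all genes. *Cnot7* (255 FPKM, rank 298) and *Dcp1a* (195 FPKM, rank 424) followed. *Cnot7* was above *Dcp1a* in each RNP group without overlap (411 against 298 FPKM in WT and 276 against 116 FPKM in KO), whereas in the polysome pool they overlapped, with *Dcp1a* at 258 and *Cnot7* at 219 FPKM in WT. *Cnot6l* (41.9 FPKM), *Pan3* (35.0 FPKM) and *Pan2* (19.6 FPKM) formed a middle group, in which the ranges of *Cnot6l* and *Pan3* and those of *Pan3* and *Pan2* overlapped. The scaffold *Cnot1* (5.11 FPKM) and the decapping enzyme *Dcp2* (5.74 FPKM) were low, and their order depended on the pool. *Dcp2* was above *Cnot1* in each RNP library, *Cnot1* was above *Dcp2* in each KO polysome library, and they overlapped in the WT polysome pool. *Cnot6* had a mean of 2.79 FPKM, with a range over the 12 libraries that overlapped theirs, and *Zfp36l2* (0.793 FPKM, rank 10500) was near 0 in most libraries. The catalytic partners were thus unequal in level, with *Cnot6l* above *Cnot6* and the activator *Dcp1a* above the enzyme *Dcp2* in each of the 12 libraries.

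**Figure D1:**
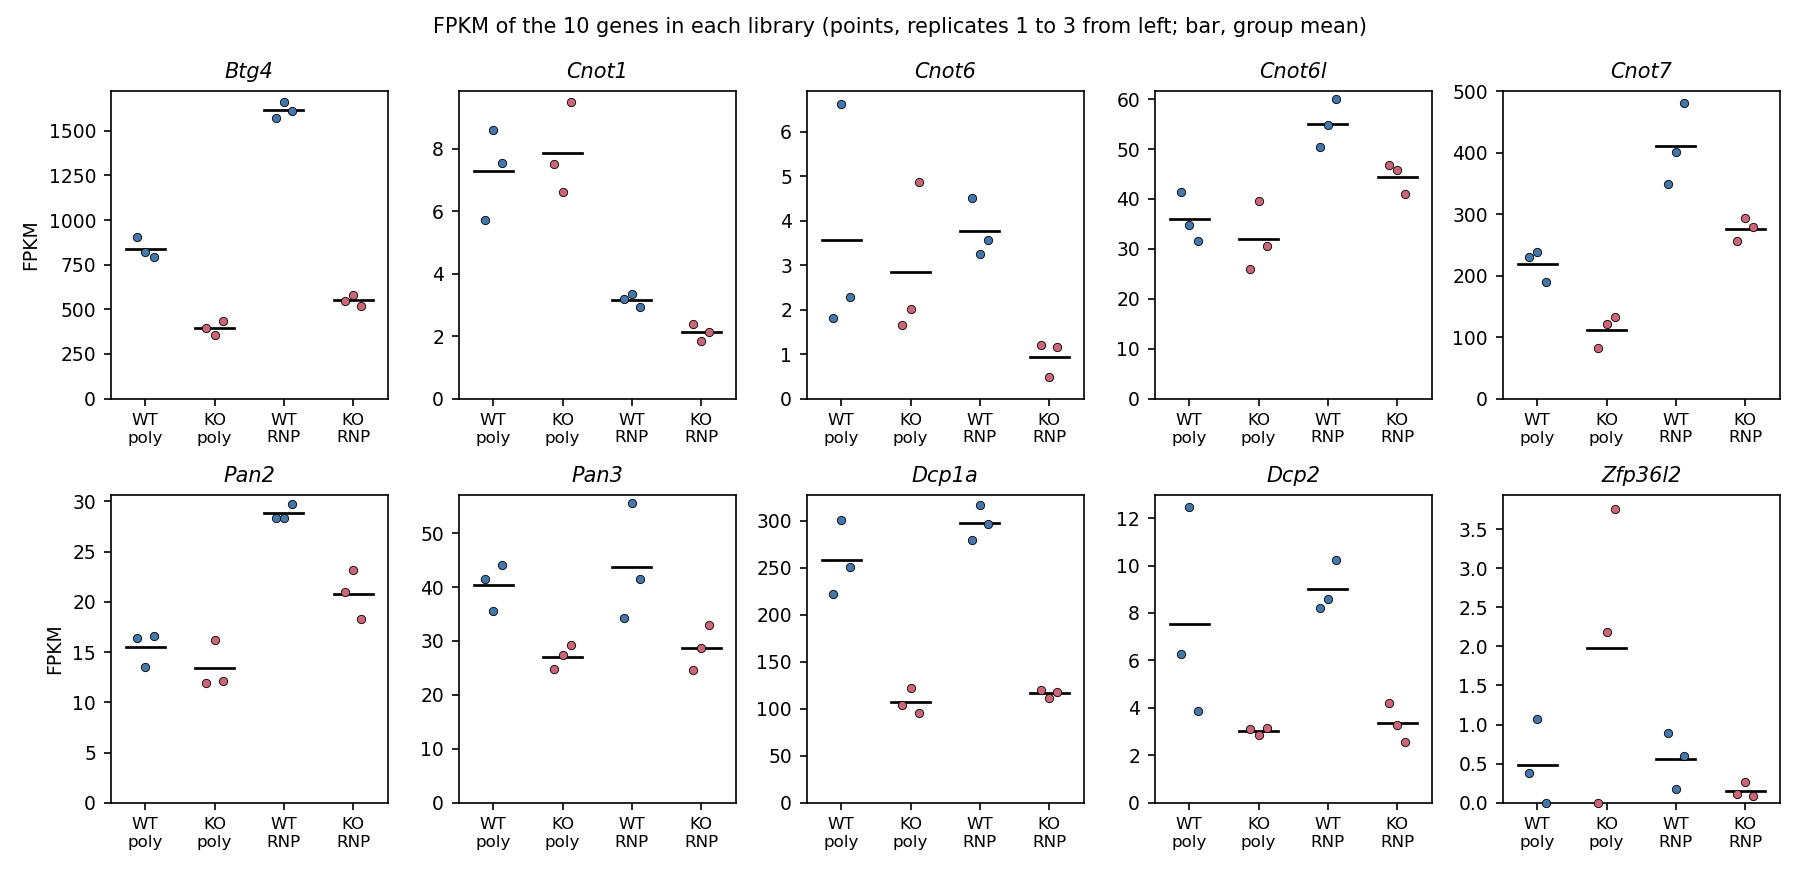
FPKM of the 10 genes in each of the 12 libraries, 1 panel per gene, with points for libraries and bars for the mean of each group of 3. The KO points of *Btg4*, *Cnot7* and *Dcp1a* lie below all WT points of the same pool, and *Zfp36l2* stays between 0 and 3.75 FPKM.

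The 3′ ends of the genes are shown because oocyte mRNAs are stored and translated through short elements there. The last 100 bases of the longest coding transcript of each gene were searched on the sense strand, in GENCODE M21 on the GRCm38 build, for the cytoplasmic polyadenylation element (TTTTAT or TTTTAAT) and for the polyadenylation signal (AATAAA or ATTAAA). These motifs overlap where TTTTAATAAA occurs. The element was found in 6 of 10 genes (*Dcp1a*, *Btg4*, *Cnot1*, *Cnot7*, *Pan2* and *Pan3*) and in 16.6% of 21828 coding transcripts of all genes. The signal was found in 8 of 10 genes and in 74.9% of those transcripts. Windows of 30 bases are printed for some of the genes, from chr9:51119797-51119826 (+ strand) for *Btg4*, chr8:40493036-40493065 (- strand) for *Cnot7*, chr14:30527011-30527040 (+ strand) for *Dcp1a*, chr10:128321314-128321343 (+ strand) for *Pan2* and chr8:95719504-95719533 (- strand) for *Cnot1*. Of the genes not printed, *Cnot6*, *Dcp2* and *Zfp36l2* had a signal and no element, and *Pan3* had both. Capitals mark the element and the signal, and the *Cnot6l* window from chr5:96070340-96070369 (- strand) holds a signal alone. The windows of *Dcp1a*, *Pan2* and *Cnot7* hold the element within a few bases of a signal, whereas no signal was found in the last 100 bases of *Btg4* and *Cnot1*. A match describes letters, and which 3′ ends these oocytes use was not tested.
Btg4: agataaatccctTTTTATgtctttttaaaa
Cnot7: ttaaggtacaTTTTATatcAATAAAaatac
Cnot6l: ttccctgtaggcAATAAAtggccattttgc
Cnot1: aagatgtattgaTTTTATatatgtgagtac
Pan2: atgTTTTATaaAATAAAagtatTTTTATct
Dcp1a: aaatatatttTTTTAATAAAatttcaaaac

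The adaptor *Btg4* was lower in KO in both pools. Its polysome FPKM was 906, 818 and 790.0 in WT and 394, 358 and 432 in KO (838 ± 60.5 against 395 ± 36.9, mean ± SD, n = 3). Its RNP values were 1573, 1660.5 and 1609 in WT and 549, 579.9 and 521 in KO (1614 ± 43.9 against 549.8 ± 29.6). All KO libraries were below all WT libraries of their pool, and the replicates within a group lay close together. *Btg4* fell by 1.09 on the log2 scale in the polysome pool (SE 0.11, limma adjusted p = 0.00185), to 47.1% of the WT mean. It fell by 1.55 in the RNP pool (SE 0.065, adjusted p = 2.16e-06), to 34.1% of the WT mean. Its rank among all genes was 24 in the WT RNP pool and 101 in the KO RNP pool.

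*Cnot7*, a catalytic subunit of CCR4-NOT, was also lower in KO. Its polysome FPKM was 231, 239 and 189 in WT and 82.7, 121 and 132 in KO. Its RNP FPKM was 349.7, 402 and 481 in WT and 256, 293 and 279.8 in KO. The groups were apart in both pools, and the lowest library was KO polysome replicate 1. *Cnot7* fell by 0.99 in the polysome pool (SE 0.20, adjusted p = 0.0174) and fell by 0.56 in the RNP pool (SE 0.12, adjusted p = 0.0111), to 51.0% and 67.3% of the WT means. The polysome call was lost with no filter on low values (adjusted p = 0.0542) and without an intensity trend (adjusted p = 0.0906), where alternatives ranged from 0.0018 to 0.0906. The RNP call was lost without the trend (adjusted p = 0.0972, range 0.00421 to 0.0972).

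*Cnot6* and *Cnot6l* encode alternative catalytic subunits of the other nuclease type in the complex. *Cnot6l*, the abundant one, had 41.4, 34.8 and 31.6 FPKM in the WT polysome pool and 25.9, 39.5 and 30.5 in KO, and these groups overlapped. Its RNP values were 50.4, 54.7 and 60.0 FPKM in WT and 46.7, 45.7 and 40.9 FPKM in KO. All 3 KO RNP libraries were below the WT RNP libraries, but neither difference passed the test (log2 difference -0.18, adjusted p = 0.688, and -0.30, adjusted p = 0.173). *Cnot6* had 4.50, 3.25 and 3.57 FPKM in the WT RNP pool and 1.20, 0.477 and 1.16 in KO. These groups were apart at low levels, and *Cnot6* fell by 1.31 (SE 0.36, adjusted p = 0.0319). That call was lost without KO RNP replicate 1, 2 or 3 or without WT RNP replicate 1 or 3 (adjusted p = 0.0779, 0.126, 0.0784, 0.0746 and 0.0513). It was also lost with a pseudocount of 0.1 (0.0506), no filter on low values (0.0656), all 12 libraries in one fit (0.0728) and a replicate block (0.0572), and adjusted p over all alternatives ranged from 0.0175 to 0.126. The polysome level of *Cnot6* was 1.81, 6.62 and 2.29 FPKM in WT and 1.66, 2.01 and 4.88 in KO, so that 1 library was high in each group and the groups overlapped (log2 difference -0.19, adjusted p = 0.859). Without KO polysome replicate 1 or WT polysome replicate 2 that difference was 0.027 or 0.25.

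The scaffold *Cnot1*, on which the subunits assemble, did not pass the test in either pool. Its FPKM in the polysome pool was 5.71, 8.59 and 7.53 in WT and 7.52, 6.62 and 9.48 in KO, with overlapping groups and a log2 difference of 0.10 (95% interval -0.74 to 0.94, adjusted p = 0.888). Without KO polysome replicate 3 or WT polysome replicate 1 this difference was -0.023 or -0.040. The RNP values were 3.19, 3.36 and 2.92 in WT and 2.39, 1.83 and 2.14 in KO. The KO RNP libraries were all lower, and the log2 difference was -0.42 (95% interval -1.15 to 0.32, adjusted p = 0.412). The pseudocount of 1 understates the change of genes as low as *Cnot1* and *Cnot6*.

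*Pan2* is the nuclease and *Pan3* the partner that binds poly(A)-binding protein. *Pan3* had 41.4, 35.6 and 44.1 FPKM in the WT polysome pool and 24.7, 27.3 and 29.3 in KO, and 34.2, 55.6 and 41.5 in the WT RNP pool and 24.6, 28.8 and 32.9 in KO. All KO libraries were below the WT libraries in both pools, by a narrow margin in the RNP pool. The differences did not pass the test (log2 -0.55, adjusted p = 0.132, and -0.57, adjusted p = 0.0871). Without WT RNP replicate 1 the RNP difference was -0.73 and passed (adjusted p = 0.0474, range over alternatives 0.0474 to 0.255). *Pan2* had 16.4, 13.6 and 16.6 FPKM in the WT polysome pool and 11.9, 16.2 and 12.2 in KO, which overlapped, and 28.4, 28.3 and 29.8 in the WT RNP pool and 21.0, 23.2 and 18.3 in KO, which did not. Its log2 differences of -0.20 and -0.46 did not pass the test (adjusted p = 0.711 and 0.102).

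*Dcp1a*, the decapping activator, had 222, 301 and 251 FPKM in the WT polysome pool and 104, 122 and 95.9 in KO. Its RNP level was 279.9, 317 and 296 FPKM in WT and 119.8, 111 and 118 in KO. The KO libraries of both pools lay in a narrow band below all WT libraries. *Dcp1a* was at 41.6% of the WT mean in the polysome pool (adjusted p = 0.00368) and fell by 1.35 in the RNP pool (SE 0.095, adjusted p = 5.02e-05), to 39.1% of the WT mean. *Dcp2*, the enzyme that cleaves the cap, had 8.22, 8.58 and 10.2 FPKM in the WT RNP pool and 4.22, 3.29 and 2.54 in KO. These groups were apart, and *Dcp2* fell by 1.21 (SE 0.30, adjusted p = 0.0199), to 37.2% of the WT mean. The call was lost without KO RNP replicate 2 (log2 -1.21, adjusted p = 0.0635) or 3 (-1.08, adjusted p = 0.0768), and adjusted p over all alternatives ranged from 0.0171 to 0.0768. The polysome level of *Dcp2* was 6.28, 12.5 and 3.88 FPKM in WT and 3.09, 2.85 and 3.17 in KO. WT replicate 2 was far above the other libraries, the groups were apart, and the log2 difference of -0.95 did not pass the test (95% interval -2.05 to 0.14, adjusted p = 0.248). With 1 library left out it lay between -1.30 without WT replicate 3 and -0.56 without WT replicate 2.

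*Zfp36l2* had 0.385, 1.07 and 0 FPKM in the WT polysome pool and 0, 2.18 and 3.75 in KO. Its RNP level was 0.888, 0.177 and 0.596 FPKM in WT and 0.117, 0.263 and 0.0904 in KO. It was listed at 0 in WT polysome replicate 3 and KO polysome replicate 1, and the groups overlapped in both pools. It passed the filter of 1 FPKM in 3 libraries in the polysome comparison, through WT replicate 2 and KO replicates 2 and 3, and its log2 difference there was 0.80 (95% interval -0.65 to 2.25, adjusted p = 0.474). With 1 library left out, where the gene still passed the filter, this difference lay between 0.55 and 1.45. Other settings gave 0.31 to 1.32. *Zfp36l2* was too low to be tested in the RNP pool.

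**Figure D2:**
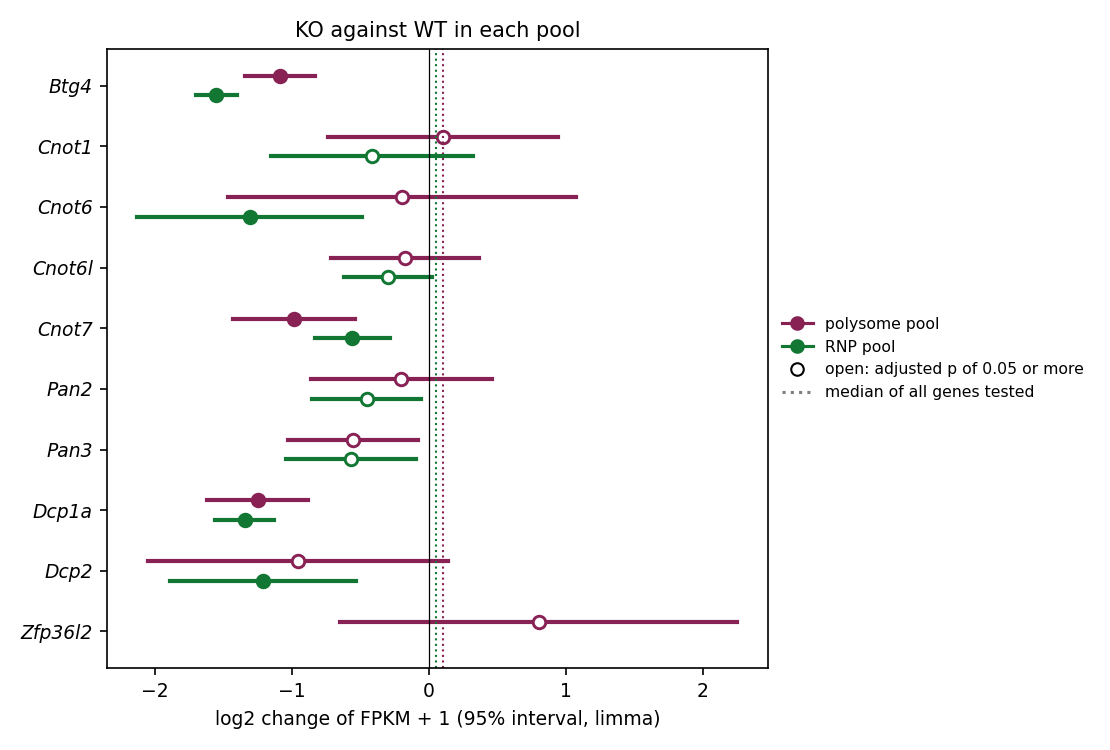
log2 change of FPKM + 1 of each gene, KO against WT, in the polysome and RNP pools, with 95% intervals; filled points have an adjusted p under 0.05. The points of *Btg4* (-1.09 and -1.55) and *Dcp1a* are filled in both pools, and the interval of *Cnot1* spans 0 in both.

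In the polysome pool all 10 genes passed the filter on low values, 3 fell (*Btg4*, *Cnot7* and *Dcp1a*) and 0 rose, where 4.73% of 9536 genes tested were called lower and 5.64% higher. At an unadjusted p under 0.05, limma called 4 of the 10, where 26.3% of all genes tested passed in either direction. The median of the 10 log2 changes was -0.38, against 0.10 over all genes tested. Without KO polysome replicate 2 the same 3 genes were called, *Btg4* at -1.02 (adjusted p = 0.00875), *Cnot7* at -1.05 (adjusted p = 0.0454) and *Dcp1a* at -1.35 (adjusted p = 0.0104), and *Zfp36l2* no longer passed the filter. The others were then at -0.92 (*Dcp2*), -0.56 (*Pan3*), -0.34 (*Pan2*), -0.34 (*Cnot6l*), -0.064 (*Cnot6*) and 0.21 (*Cnot1*) and were not called. Without KO polysome replicate 1, 2 or 3 the number of all genes called lower dropped from 451 to 275, 249 and 247, and the number called higher from 538 to 247, 149 and 136. The number called lower was 290, 309 and 338 without WT polysome replicate 1, 2 or 3.

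In the RNP pool 9 of the 10 genes passed the filter, 5 fell (*Btg4*, *Cnot6*, *Cnot7*, *Dcp1a* and *Dcp2*) and 0 rose, where 10.2% of 9931 genes tested were called lower and 10.5% higher. All 9 had each KO library below each WT library, where this held for 18.4% of all genes tested, and the median of their log2 changes was -0.57, against 0.05 over all genes tested. Without KO RNP replicate 2 or 3 the members called were 3, *Btg4*, *Cnot7* and *Dcp1a*. Without KO RNP replicate 1, 2 or 3 the number of all genes called dropped from 2057 to 1255, 1259 and 1298. The summed FPKM of the 10 genes was 1473, 1470.2 and 1336 in the WT polysome pool and 656, 698 and 754 in KO, and 2333, 2533 and 2535 in the WT RNP pool and 1025, 1088 and 1017 in KO. *Btg4* made up the larger part of each sum, and each KO sum was below each WT sum of its pool.

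Promoters are shown for *Btg4* and *Dcp1a*, the genes that were called lower in both pools in each alternative run. RefSeq promoters (GRCm38.p6, 250 bases before to 50 after the start) were found for 6 of the 10 genes. They were searched for CANNTG, the E-box core, which reads alike on both strands, and for CCAAT on either strand. These motifs were in 72.3% and 37.4% of 32851 promoters of the same length. The *Btg4* promoter (chr9:51115751-51116050, + strand) had 39% GC, with 2 matches of CANNTG and 1 of CCAAT, and the *Dcp1a* promoter (chr14:30479315-30479614, + strand) had 65.3% GC, with 1 match of CANNTG and 0 of CCAAT. The median of all promoters was 52.7% GC, so these promoters lie on opposite sides of it. Capitals mark the matches, which are a description of letters and not of binding.
Btg4 promoter: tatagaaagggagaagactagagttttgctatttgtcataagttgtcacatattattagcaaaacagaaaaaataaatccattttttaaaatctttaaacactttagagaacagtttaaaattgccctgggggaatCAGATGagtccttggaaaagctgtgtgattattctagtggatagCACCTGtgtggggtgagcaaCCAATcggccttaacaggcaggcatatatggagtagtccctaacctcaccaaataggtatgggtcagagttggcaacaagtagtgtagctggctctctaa
Dcp1a promoter: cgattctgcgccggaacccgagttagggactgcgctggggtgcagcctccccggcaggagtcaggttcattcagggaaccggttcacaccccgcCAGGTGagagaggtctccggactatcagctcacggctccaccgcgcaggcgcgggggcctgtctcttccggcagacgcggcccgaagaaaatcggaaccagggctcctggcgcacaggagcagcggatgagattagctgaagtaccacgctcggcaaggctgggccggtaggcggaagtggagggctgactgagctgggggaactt

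The pools were compared within WT oocytes to see which of these mRNAs were relatively richer in heavy or in light fractions. *Btg4*, *Cnot7* and *Pan2* were lower in the polysome pool than in the RNP pool, at 51.9%, 53.4% and 53.8% of the RNP mean. Their log2 differences were -0.95 (SE 0.085, adjusted p = 0.000242), -0.90 (SE 0.15, adjusted p = 0.00587) and -0.86 (SE 0.24, adjusted p = 0.0479), and all polysome libraries of each were below all RNP libraries. *Cnot1* had the opposite order, with each polysome library above each RNP library and a log2 difference of 0.98 (95% interval 0.06 to 1.89) that did not pass the test (adjusted p = 0.145). *Cnot6l* was apart in the direction of *Btg4* (log2 -0.61, adjusted p = 0.0779), and *Dcp1a* (-0.21), *Dcp2* (-0.35), *Cnot6* (-0.20) and *Pan3* (-0.09) overlapped between pools. With 1 library left out *Dcp1a* lay between -0.33 and -0.11. *Dcp2* was at -0.74 without WT polysome replicate 2 and at -0.0097 without WT polysome replicate 3. Without WT polysome replicate 1 the *Cnot6* difference was 0.078, and without WT RNP replicate 2 the *Pan3* difference was 0.090.

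Thus 3 of 9 genes tested were called lower and 0 higher, where 6.72% of 9574 genes tested were called lower and 7.97% higher. The call of *Pan2* was lost without WT polysome replicate 1, 2 or 3 (adjusted p = 0.0685, 0.0961 and 0.0659) and without WT RNP replicate 1, 2 or 3 (0.143, 0.132 and 0.142). It was also lost with a pseudocount of 5 (0.0501), with libraries rescaled to the same median (0.0574), without the trend (0.0648) and with a replicate block (0.0990), and adjusted p over all alternatives ranged from 0.0102 to 0.143. *Cnot7* was lost without the trend (adjusted p = 0.0761, range 0.00188 to 0.0761). *Cnot1* and *Cnot6l* were called with all 12 libraries in one fit, and *Cnot6l* also with libraries rescaled without the 10 most abundant genes. Without WT RNP replicate 1, 2 or 3 the number of all genes called lower dropped from 643 to 264, 266 and 259.

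In KO oocytes the scaffold *Cnot1* was higher in the polysome pool than in the RNP pool and *Btg4* and *Cnot7* were lower. *Cnot1* had a log2 difference of 1.50 (SE 0.30, adjusted p = 0.00546), a mean 3.71 times that of the RNP pool. *Cnot7* had -1.32 (SE 0.17, adjusted p = 0.000443), at 40.5% of the RNP mean, and *Btg4* had -0.48 (SE 0.094, adjusted p = 0.00483), at 71.8%. All polysome libraries of these 3 genes were on 1 side of all RNP libraries. The same held for *Cnot6* (0.92, adjusted p = 0.142), *Cnot6l* (-0.48, adjusted p = 0.0801) and *Pan2* (-0.60, adjusted p = 0.0616), which did not pass the test, while *Dcp1a* (-0.12), *Dcp2* (-0.09) and *Pan3* (-0.08) overlapped.

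Of 9 genes tested, 1 was called higher and 2 lower in the KO polysome pool, where 15.5% of 9851 genes tested were called higher and 13.8% lower. Without KO polysome replicate 2 the number of members called was 5, since *Cnot6l* (log2 -0.64, adjusted p = 0.0266) and *Pan2* (-0.74, adjusted p = 0.0376) passed too. In that fit 26.9% of 9561 genes tested were called, 1287 higher and 1284 lower. *Cnot1* was then at 1.60, *Cnot7* at -1.39 and *Btg4* at -0.41, with adjusted p of 0.00948, 0.00134 and 0.0166, and *Cnot6* (1.05), *Dcp1a* (-0.22), *Dcp2* (-0.057) and *Pan3* (-0.082) were not called. Over all alternatives the adjusted p of *Cnot6l* and *Pan2* ranged from 0.0239 to 0.205 and from 0.0252 to 0.195. *Cnot6l* and *Pan2* also passed with libraries rescaled without the 10 most abundant genes, *Cnot6l* also with quantile normalization and *Pan2* also with a filter of 5 FPKM. The call of *Btg4* was lost without the trend (adjusted p = 0.0791, range 0.00041 to 0.0791). Without KO RNP replicate 1 the *Dcp2* difference was 0.050, and without KO RNP replicate 3 the *Pan3* difference was 0.024. With 1 library left out *Cnot6* lay between 0.56 and 1.14, and *Dcp1a* between -0.22 and -0.042. Without KO RNP replicate 1, 2 or 3 the number of all genes called lower dropped from 1358 to 873, 867 and 848.

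**Figure D3:**
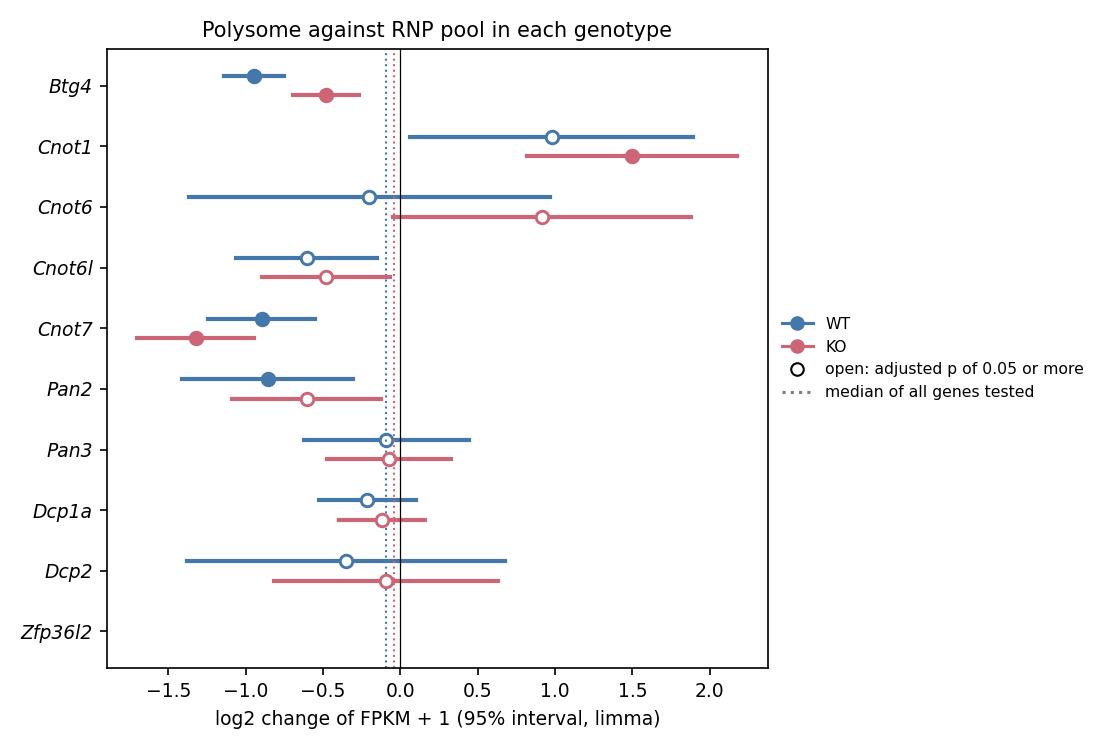
log2 difference of FPKM + 1 between the polysome and RNP pools for each gene in WT and in KO oocytes, with 95% intervals; filled points have an adjusted p under 0.05. *Cnot1* lies above 0 (0.98 in WT, 1.50 in KO), *Btg4* and *Cnot7* below it, and *Zfp36l2* has no point because it was not tested.

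Whether the genotype changed the ratio of the pools was tested as an interaction over all 12 libraries. All 10 genes passed the filter and 0 were called by limma, where 0.237% of 10949 genes tested were called. At an unadjusted p under 0.05, 1 of the 10 passed (*Btg4*), against 11.1% of all genes tested. The polysome-to-RNP ratio of *Btg4* was higher in KO by 0.47 on the log2 scale (95% interval 0.20 to 0.73, limma adjusted p = 0.153, 0.00216 before adjustment), since its RNP level was further below WT than its polysome level. *Cnot7* had the opposite sign (-0.43, 95% interval -0.95 to 0.10, adjusted p = 0.557), since its polysome level was further below WT, and was at -0.22 without KO polysome replicate 1. *Dcp1a* (0.09, adjusted p = 0.8995) and *Pan3* (0.017, adjusted p = 0.991) were near 0. *Cnot1* (0.52), *Cnot6* (1.12), *Dcp2* (0.26), *Pan2* (0.25), *Cnot6l* (0.12) and *Zfp36l2* (1.20) were above 0 with adjusted p between 0.570 and 0.906.

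Several of the small ratio differences turned with 1 library. *Dcp1a* was at -0.0031 without KO polysome replicate 2 and at -0.0082 without WT polysome replicate 1, and *Cnot6l* was at -0.035 without KO polysome replicate 2. *Dcp2* was at -0.081 without WT polysome replicate 3. *Pan3* was at -0.038, -0.088, -0.068 and -0.17 without KO polysome replicate 3, KO RNP replicate 1, WT polysome replicate 2 and WT RNP replicate 2. It was also below 0 in the 3 rescaled fits, with libraries set to the same median (-0.025), quantile normalization (-0.013) or scaling without the 10 most abundant genes (-0.012). Without KO polysome replicate 2 *Btg4* was at 0.53 (adjusted p = 0.136), *Cnot7* at -0.49, *Cnot1* at 0.62, *Cnot6* at 1.25, *Dcp2* at 0.29 and *Pan2* at 0.12, and 0 genes of the 10 were called by limma. *Btg4* passed with quantile normalization (0.60, adjusted p = 0.0347, range 0.0347 to 0.536). The count of all genes called was 26, and it was 10 and 15 without KO polysome replicates 2 and 3, 3, 0 and 1 without KO RNP replicates 1, 2 and 3, 46 without WT polysome replicate 3, and 2 and 3 without WT RNP replicates 2 and 3.

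Ratios between genes of like function within a library do not depend on the scaling of libraries, apart from the pseudocount. The log2 ratio of *Btg4* to *Tob1*, another adaptor of CCR4-NOT, was 6.08, 4.87 and 4.93 in the WT polysome libraries and 2.79, 2.17 and 2.34 in KO. For the RNP pool it was 6.21, 6.73 and 6.92 in WT and 3.88, 4.41 and 3.89 in KO. *Btg4* was thus the more abundant of this pair in each library, and the ratio was lower in each KO library, by differences of -2.86 and -2.56 (2-sided exact permutation p = 0.1 in both, the smallest possible; -2.73 in the polysome pool without KO replicate 2). *Tob2*, a further adaptor, was more abundant than *Tob1*, with means of 234 FPKM in WT and 322 FPKM in KO in the polysome pool and 102 and 171 FPKM in the RNP pool. *Btg4* had a mean of 395 FPKM in the KO polysome pool. *Tob1* itself rose in the polysome pool, from 12.4, 27.0 and 24.99 FPKM in WT to 56.3, 79.0 and 84.4 in KO.

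The log2 ratio of *Cnot7* to its paralog *Cnot8* in the RNP pool was 1.10, 1.32 and 1.53 for WT and 2.38, 1.97 and 2.24 in KO. *Cnot7* was the more abundant paralog throughout, and its ratio was higher in KO by 0.88 (exact p = 0.1) with groups apart. For the polysome pool it was 0.95, 0.67 and 0.43 in WT and 0.52, 0.86 and 1.67 in KO, and the groups overlapped (difference 0.34, exact p = 0.5). With 1 library left out this difference ranged from 0.0089, without KO replicate 3, to 0.58, without KO replicate 1, and it was 0.42 without KO replicate 2. *Cnot8* fell by 1.32 in the polysome pool (SE 0.21, adjusted p = 0.00768) and fell by 1.44 in the RNP pool (SE 0.15, adjusted p = 0.000386). The RNP level of *Cnot8* was 163, 160.2 and 166 FPKM in WT and 48.5, 74.0 and 58.4 in KO, so both CAF1-type nucleases were lower in KO.

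The log2 ratio of *Cnot6* to *Cnot6l* in the RNP pool was -3.22, -3.71 and -3.74 for WT and -4.44, -4.98 and -4.28 in KO. It was lower in each KO library, with a difference of -1.01 (exact p = 0.1; -1.66 with a pseudocount of 0.1 and -0.28 with 5), and differed by -0.017 with overlapping groups in the polysome pool (exact p = 0.9). That difference was 0.27 without KO replicate 2, and with 1 library left out it ranged from -0.40 to 0.44, without WT replicate 1 and WT replicate 2. *Dcp1b*, the paralog of *Dcp1a*, was listed at 0 in 9 of 12 libraries. It had 1.98 FPKM in WT polysome replicate 3, 2.76 in WT RNP replicate 1 and 0.726 in KO RNP replicate 3. The ratio of *Dcp1a* to *Dcp1b* differed by -0.73 and -0.97 in the polysome and RNP pools (exact p = 0.4 and 0.3), and that of *Zfp36l2* to *Zfp36l1*, both near 0 FPKM, by 1.02 and -0.44 (exact p = 0.3 and 0.4). With so many values at or near 0 these ratios depend on the pseudocount. With a pseudocount of 0.1 the polysome difference of *Dcp1a* to *Dcp1b* was 0.20, and those of *Zfp36l2* to *Zfp36l1* were 2.21 and -1.58. The *Dcp1a* to *Dcp1b* difference was -0.35 without WT polysome replicate 2 and -1.27 without WT polysome replicate 3, and in the RNP pool -0.61 without WT replicate 2 and -1.65 without WT replicate 1. It was -0.82 without KO polysome replicate 2. The *Zfp36l2* to *Zfp36l1* difference was 0.62 without KO polysome replicate 2, 0.64 without WT polysome replicate 1 and 1.61 without WT polysome replicate 2, and in the RNP pool -0.22 without WT replicate 1 and -0.76 without WT replicate 2.

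**Figure D4:**
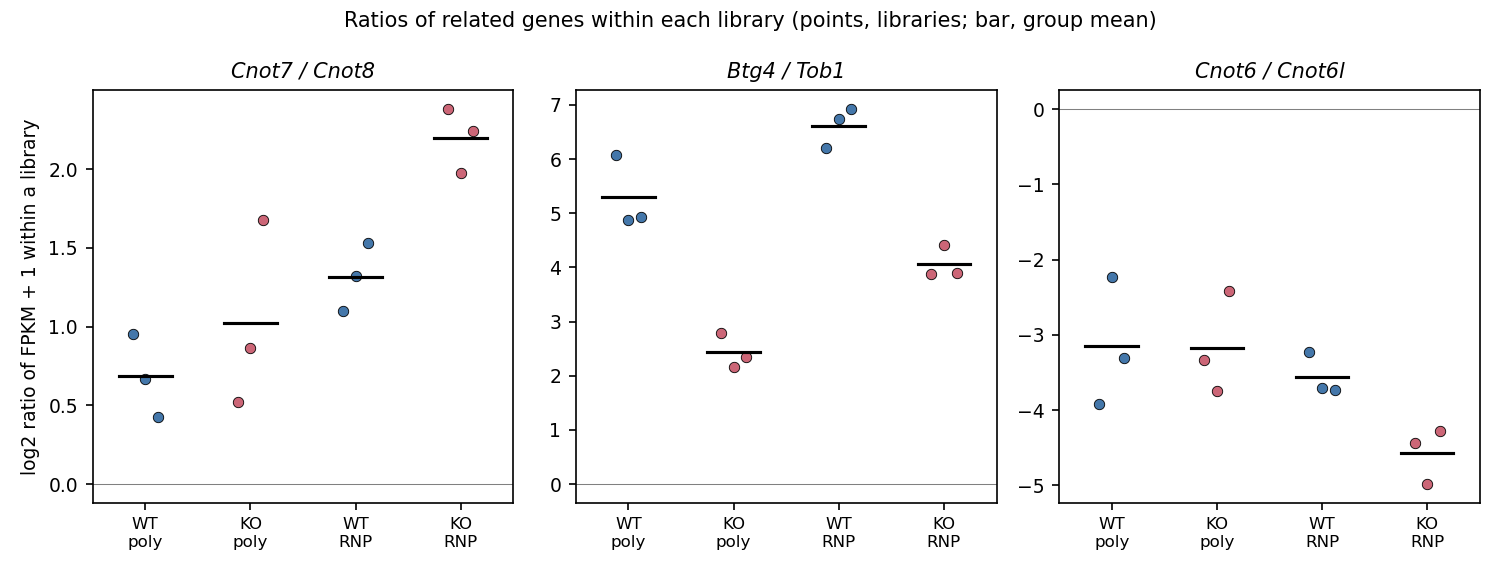
log2 ratio of FPKM + 1 of each gene to its paralog or fellow adaptor in each library, by pool and genotype, with bars for group means. The KO points of *Btg4* to *Tob1* lie between 2.17 and 4.41 and the WT points between 4.87 and 6.92, and the *Cnot7* to *Cnot8* points of the RNP pool are apart.

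The rest of the pathway was described with 5 further lists, 71 genes in all, compiled by function. In the polysome pool 56 of them were tested, 5 rose and 5 fell, against 5.64% higher and 4.73% lower over all genes tested. When KO polysome replicate 2 was left out, 3 of 54 rose and 4 fell, against 149 higher and 249 lower of 9077 genes tested. In the RNP pool 59 were tested, 4 rose and 7 fell, against 10.5% higher and 10.2% lower over all genes tested. These counts include 2 genes that passed the filter only through the group in which they were high. *Btg3*, called higher in the polysome pool, had 0 FPKM in each WT library and 1.53, 1.81 and 2.17 in KO. *Exosc6*, called lower in the RNP pool, had 1.59, 1.22 and 6.46 FPKM in WT and 0 in each KO library. By list, other CCR4-NOT subunits had 0 higher and 1 lower of 8 tested in the polysome pool, and 0 and 2 of 8 in the RNP pool. Other deadenylases and BTG/TOB adaptors had 3 higher (*Btg3*, *Tob1* and *Tob2*) and 1 lower of 10, and 2 and 2 of 10. Other decapping and 5′ decay factors had 1 higher and 1 lower of 16, and 1 and 0 of 16. Recruiting RNA-binding proteins had 1 higher and 1 lower of 10, and 1 and 1 of 11. The exosome, SKI complex and terminal uridylation list had 0 higher and 1 lower of 12, and 0 and 2 of 14 (*Exosc3* and *Exosc6*). The medians of these lists lay between -0.18 and 0.50 in the polysome pool and between -0.19 and 0.30 in the RNP pool, against -0.38 for the 10 genes and -0.57 for the 9 of them tested in the RNP pool.

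*Ccrn4l*, which encodes the deadenylase-like protein nocturnin, fell by 2.97 in the polysome pool (SE 0.31, adjusted p = 0.00189) and fell by 2.37 in the RNP pool (SE 0.22, adjusted p = 0.000172). Its polysome FPKM was 65.4, 88.1 and 78.5 in WT and 5.71, 12.9 and 9.54 in KO. *Exosc3*, a subunit of the exosome, was lower in KO (log2 -2.81 and -3.81, adjusted p = 0.0264 and 0.000746), and *Nanos2*, which encodes a protein that recruits CCR4-NOT in germ cells, was lower too (-1.97 and -1.49, adjusted p = 0.00782 and 0.000208). *Nudt16*, which encodes another decapping enzyme, fell by 2.50 in the polysome pool (adjusted p = 0.0315), where its FPKM was 17.1, 10.3 and 10.6 in WT and 2.52, 0 and 2.72 in KO. In the RNP pool it had 1.26, 0 and 0.222 FPKM in WT and 0.376, 6.03 and 3.62 in KO, which overlapped (log2 1.34, adjusted p = 0.169). *Patl2*, which encodes an oocyte RNA-binding protein of the PAT1 family, rose by 1.90 and 2.24 (adjusted p = 0.00916 and 0.000342), from 4.63, 7.08 and 6.23 to 25.5, 27.6 and 21.6 FPKM in the polysome pool. These are RNA values, and the paper's Western blot reports PATL2 protein as lower in KO oocytes. *Tob1* rose by 1.78 and 1.01 (adjusted p = 0.0121 and 0.0156), and *Ythdf2*, which encodes a reader of methylated mRNA that recruits CCR4-NOT, by 1.54 and 1.64 (adjusted p = 0.00311 and 0.000677). The polysome call of *Nudt16* was lost without KO polysome replicate 2 (log2 -1.88, adjusted p = 0.0708). Those of *Ccrn4l* (-3.21, adjusted p = 0.00307), *Exosc3* (-3.32, 0.0302), *Nanos2* (-2.14, 0.0174), *Cnot8* (-1.47, 0.0156), *Ythdf2* (1.53, 0.0150), *Patl2* (1.83, 0.0480) and *Tob1* (1.71, 0.0481) were kept. The KO and WT libraries of each of these genes were apart in each pool in which it was called.

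**Figure D5:**
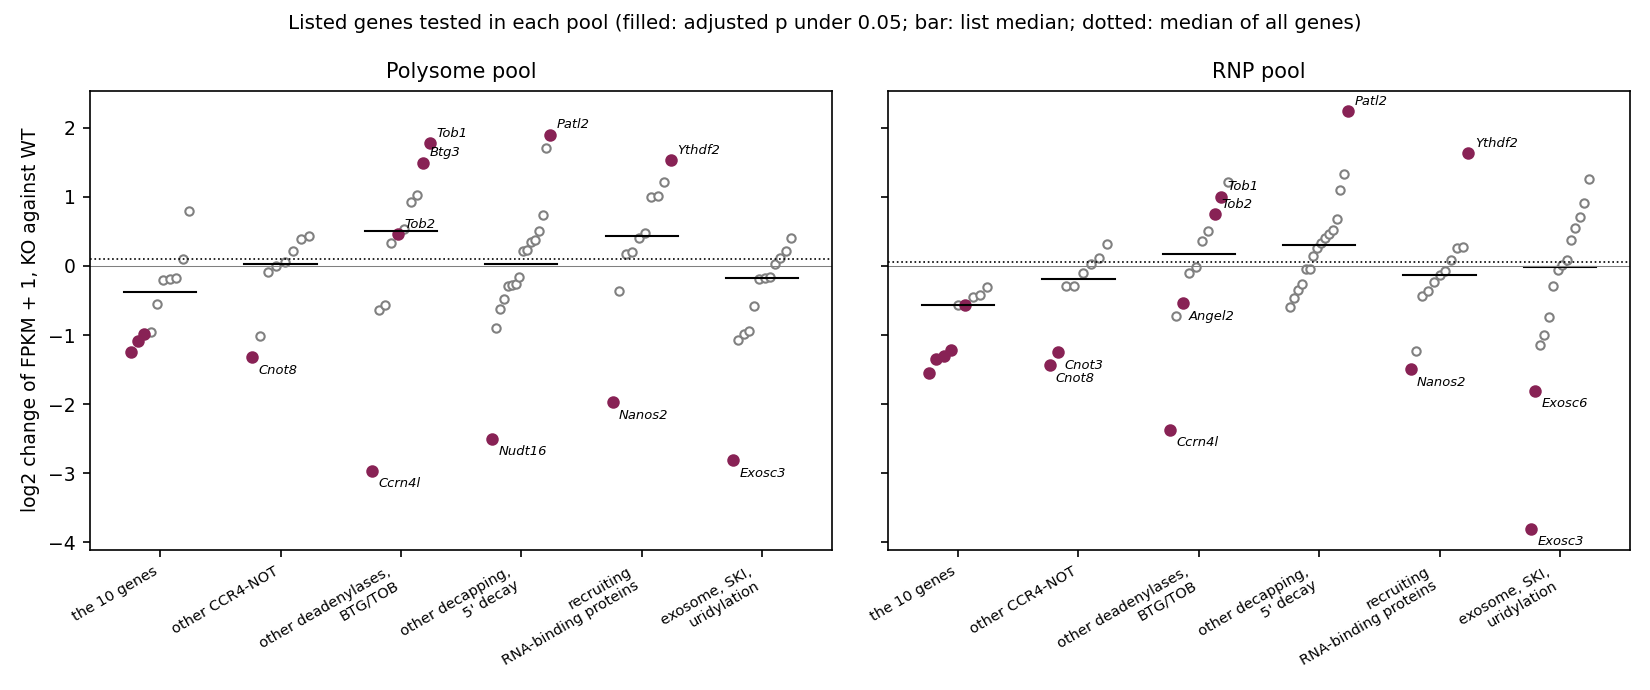
log2 change of FPKM + 1, KO against WT, of each tested gene of the 10 and of the 5 further lists in both pools, with filled points for an adjusted p under 0.05 and bars for list medians. The bar of the 10 genes (9 tested in the RNP pool) is the lowest (-0.38 and -0.57), while *Patl2* and *Tob1* lie above 0 and *Ccrn4l* and *Exosc3* far below it.

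Between pools, 7 of 56 listed genes tested were higher and 4 lower in the polysome pool of WT oocytes, and 12 and 9 of 57 in KO oocytes. Over all genes tested 7.97% were higher and 6.72% lower in WT, and 15.5% and 13.8% in KO. The KO counts were 12 and 10 of 55 without KO polysome replicate 2, against 1287 higher and 1284 lower of 9561 genes tested. In WT, *Nudt16* (3.25), *Lsm4* (2.72), *Ythdf2* (1.67) and *Tob2* (1.20) were higher and *Pnrc1* (-1.55) and *Exosc3* (-1.38) lower in the polysome pool, as log2 differences. In KO, *Ythdf2* (1.57), *Tnrc6b* (1.46) and *Lsm4* (1.32) were higher and *Lsm3* (-1.58), *Samd4b* (-1.44) and *Pnrc1* (-1.36) lower, and all 6 were also called without KO polysome replicate 2. Of 63 listed genes tested for a changed ratio, 0 were called by limma, as were 0 of 62 without KO polysome replicate 2. In KO *Cnot1* had the direction of *Lsm4*, and *Btg4* and *Cnot7* had that of *Lsm3* and of *Pnrc1*, which encodes a decapping coactivator. *Lsm4* and *Lsm3* both encode subunits of the LSM ring that binds deadenylated 3′ ends, so genes of that ring went in opposite directions.

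Markers of follicle cells were measured in the same libraries. The 14 granulosa and cumulus markers summed to 75.5, 27.2 and 43.8 FPKM in the WT polysome libraries and 86.3, 97.1 and 110.3 in KO, and in the RNP pool to 37.3, 31.3 and 34.8 for WT and 66.6, 61.1 and 43.2 for KO. The KO sums were above the WT sums of their pool. *Cyp19a1* was the most abundant in the WT polysome pool, with a mean of 37.7 FPKM against 24.2 FPKM in KO (log2 -0.54, adjusted p = 0.495), and *Inha* the most abundant in the KO polysome pool, with 43.4 FPKM. Of the same list, *Foxl2*, *Amhr2*, *Has2* and *Ptx3* were listed at 0 in all polysome libraries. Of 8 tested in the polysome pool, 4 were called higher (*Inha*, *Inhba*, *Gja1* and *Fshr*), 0 were called lower, and 2 had log2 differences below 0, where 5.64% of all genes tested were called higher. *Gja1*, *Inhba* and *Fshr* passed the filter only through the KO libraries, since no WT polysome library held more than 0.700 FPKM of any of them, so they could be tested only because their KO values were higher. When KO polysome replicate 2 was left out, 2 KO libraries could not meet the filter of 3 for these genes, and *Inha*, at 3.33, did not pass (adjusted p = 0.0981), so that 0 of 4 tested were called by limma. Between the KO pools 3 of 7 were called higher in the polysome pool (*Gja1*, *Inha* and *Inhba*), where 15.5% of all genes tested were, and 2 of 5 without that library (*Inha* at 2.64 and *Inhba* at 2.27). Over all genes 1287 of 9561 were then called higher. Between the KO pools *Gja1* passed the filter only through the polysome libraries, with at most 0.583 FPKM in a KO RNP library. Between the WT pools 0 of 4 were called higher in the polysome pool, where 7.97% of all genes tested were. There 1 was called lower, *Fshr* (log2 -2.33, limma adjusted p = 0.0127), which passed the filter only through the WT RNP libraries. In KO *Fshr* had means of 4.75 FPKM in the polysome pool and 10.3 FPKM in the RNP pool. In the RNP pool 1 of 4 was called higher in KO (*Inha*), where 10.5% of all genes tested were. *Inha* had 0, 0.240 and 0 FPKM in WT and 11.0, 6.03 and 3.801 in KO there, so it too passed the filter only through the KO libraries. The oocyte markers summed to 22290, 22906 and 21312 FPKM in the WT polysome libraries and 23622, 24273 and 25629 in KO, the larger part of each from *Gdf9*. Their RNP sums were 6774, 6651 and 7055 in WT and 8328, 8418 and 8130 in KO. The 12 genes differed in direction, with 2 called higher in the polysome pool (*Zp2* and *Zp3*, which encode proteins of the zona pellucida) and 2 lower (*Dazl* and *Mos*), and 6 higher and 2 lower in the RNP pool. *Dazl*, which encodes a germ cell RNA-binding protein, had polysome means of 60.2 FPKM in WT and 16.1 FPKM in KO (log2 -1.79, adjusted p = 0.0174), and *Mos*, which encodes a kinase of meiotic maturation, 1075 and 588 FPKM (-0.85, adjusted p = 0.0130). With KO polysome replicate 2 left out, *Mos* was the 1 oocyte marker called in that pool (-0.88, adjusted p = 0.0419), with *Zp2* at 1.07, *Zp3* at 0.73 and *Dazl* at -1.54 (adjusted p = 0.0524, 0.0712 and 0.0573). The 8 theca markers summed to at most 3.02 FPKM in a library, with 0 of 1 tested called, and *Star* was at 0 throughout. The 8 blood markers summed to 13.9 to 42.1 FPKM, with *Pecam1* the most abundant, *Ptprc* at 0 throughout and 0 of 2 tested called in either pool. The part of these cells in the results was not tested.

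The genes nearest to each of the 10 in their pattern over the 12 libraries were found by the root mean square of differences in centred log2(FPKM + 1), among the 6679 genes that averaged 5 FPKM or more (6680 for *Cnot6* and *Zfp36l2*, which are below it). The closest pair was *Btg4* with *Bcl2l10*, an oocyte member of the BCL2 family, at 0.0718, followed for *Btg4* by *Tor1a* at 0.156. *Dcp1a* was nearest to *Pld1* (0.152) and *Epn2* (0.176), *Cnot7* to *Phc2* (0.212) and *Mos* (0.224), *Cnot6l* to *Nuf2* (0.124) and *E330021D16Rik* (0.138), and *Pan2* to *3010026O09Rik* (0.136) and *Gm1965* (0.1397). *Pan3* was nearest to *Mxd1* (0.186) and *Scel* (0.187), *Cnot1* to *D10Wsu102e* (0.179) and *Bptf* (0.192), and *Dcp2* to *Axin2* (0.255) and *Fbxo43* (0.256). The low genes had no close neighbour, with 0.326 for *Cnot6* (*Myo1e*) and 0.422 for *Zfp36l2* (*Ncoa5*). With KO polysome replicate 2 left out, *Bcl2l10* (0.0684) and *Tor1a* (0.154) were still the nearest to *Btg4*, *Pld1* (0.157) to *Dcp1a* and *Myo1e* (0.340) to *Cnot6*. The nearest gene of each of the other 7 was then a different one.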

How the data were processed

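RNA of the polysome and RNP pools was sequenced from WT and *Lsm14b*-KO GV oocytes, 3 libraries per group, as paired reads of 150 bp. The authors mapped reads to mm10 with TopHat2 2.0.13 and deposited FPKM per gene from Cufflinks 2.2.1 (with Cuffnorm). The deposited table also holds log2 changes, p-values and q-values between groups and between single libraries from Cuffdiff, which were not used. The annotation release is not given in the sources used here, and the sources differ on the library kit (NEBNext or KAPA) and on the densest sucrose (50% or 55%).

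Genes with at least 1 FPKM in at least 3 libraries of a comparison were tested on log2(FPKM + 1) with limma 3.58.1 in R 4.3.3 (moderated statistics with an intensity trend), adjusted by Benjamini-Hochberg over all genes tested and called at 0.05. The 4 comparisons of groups share libraries with one another, so their values are given side by side. The interaction used all 12 libraries. Ratios of paralogs were compared by 2-sided exact permutation. Pathway genes named had a mean of at least 5 FPKM and were the 6 largest changes called per comparison, besides paralogs of the 10 genes. *Btg3* and *Exosc6*, below that mean, are named because they passed the filter only through the group in which they were high. Values were tabulated and drawn with Python 3.11.15, numpy 2.4.6, pandas 2.3.3 and matplotlib 3.10.9. Fragments were estimated on the assumption of an effective length 200 bases under the annotated one. Methods were tested on simulated data. The alternatives were pseudocounts of 0.1 and 5, no filter or 5 FPKM, 3 rescalings, no trend, the replicate number as a block, 1 fit of all 12 libraries, and each library left out. Leaving KO polysome replicate 2 out of the pathway, marker and likeness results was added after seeing the data. The members, lists and alternatives were chosen with earlier results of these data known.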

Additional observations from a re-analysis of the deposited data

How the results depend on the processing

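*Btg4* and *Dcp1a* were called lower in KO in both pools under every alternative that was run, with adjusted p up to 0.0426 and 0.0390. Of the log2 differences of the 10 genes over the 5 comparisons, under alternatives other than a library left out, 426 kept direction and side of the threshold, 13 lost the call, 8 gained it and 3 changed sign; with a library left out these counts were 304, 13, 3 and 16. In the RNP pool the genes called numbered 3 to 5 with 1 library left out. Between WT pools they numbered 1 without an intensity trend and 5 with all 12 libraries in one fit. Between KO pools they numbered 5 with libraries rescaled without the 10 most abundant genes and 3 to 5 with 1 library left out. For the ratio of pools 1 gene was called with quantile normalization. The cause of these differences was not tested.

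*Pan3* in the ratio of pools changed sign with libraries at the same median (-0.025), quantile normalization (-0.013) and rescaling without the 10 most abundant genes (-0.012). With 1 library left out, log2 differences that changed sign ranged from -0.55 to 0.25 (*Cnot6*) and -0.040 to 0.22 (*Cnot1*) for genotype in the polysome pool, from -0.64 to 0.078 (*Cnot6*) and -0.25 to 0.090 (*Pan3*) between WT pools, from -0.23 to 0.050 (*Dcp2*) and -0.18 to 0.024 (*Pan3*) between KO pools, and for the ratio of pools from -0.17 to 0.18 (*Pan3*), -0.0082 to 0.21 (*Dcp1a*), -0.035 to 0.26 (*Cnot6l*) and -0.081 to 0.65 (*Dcp2*). *Parn*, of the further lists, went from 0.060 to -0.013 between KO pools without KO polysome replicate 2. A pseudocount of 0.1 gave paralog differences of -1.66 for *Cnot6* to *Cnot6l* and -1.58 for *Zfp36l2* to *Zfp36l1* in the RNP pool, and of 0.20 for *Dcp1a* to *Dcp1b* and 2.21 for *Zfp36l2* to *Zfp36l1* in the polysome pool; a pseudocount of 5 gave -0.28 for *Cnot6* to *Cnot6l* in the RNP pool.

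With a replicate block the genes called were 3, 4, 2, 3 and 0 in the 5 comparisons, and all genes called were 672, 1799, 1165, 2720 and 0. All genes called in the polysome pool were 545 with no filter, 508 with no trend and 1843 in one fit of all 12 libraries. Between WT pools they were 728 with no trend and 2302 in that fit, and for the ratio 6 with no trend. Rescaling without the 10 most abundant genes moved the median of all genes between pools by -0.10 in WT and -0.13 in KO, and gave 641 higher and 851 lower in WT and 1236 and 1756 in KO. With a filter of 5 FPKM *Cnot6* and *Zfp36l2* gave no value, nor did *Dcp2* for genotype in the polysome pool or between KO pools, nor *Cnot1* for genotype in the RNP pool. Of the 10 genes, *Zfp36l2*, *Cnot6*, *Cnot1* and *Dcp2* had the fewest estimated fragments. The part of depth in their spread between libraries was not tested. Each interval rests on 3 libraries per group.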

Other observations

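Genes outside the naming rule were looked at after their values were seen. *Ddx6*, which encodes an RNA helicase of decapping and translational repression, had 0.600, 0.657 and 4.62 FPKM in the WT polysome libraries and 8.35, 6.34 and 6.55 in KO. The groups were apart, and the log2 difference of 1.71 did not pass the test (SE 0.57, limma adjusted p = 0.0948; 1.77, also not passing, without KO polysome replicate 2). In the RNP pool it had 2.42, 2.46 and 0.286 FPKM in WT and 5.13, 3.24 and 4.73 in KO, again apart, with a log2 difference of 1.10 (adjusted p = 0.128). The paper's Western blot goes the other way for the protein, with DDX6 described as nearly depleted in KO oocytes. *Parn*, which encodes a further deadenylase, had 20.7, 14.4 and 15.7 FPKM in the WT polysome libraries and 36.1, 36.2 and 26.7 in KO, with a log2 difference of 0.93 (SE 0.26, adjusted p = 0.0577; 0.85, also not passing, without KO polysome replicate 2). Its RNP values were 23.1, 19.3 and 31.7 FPKM in WT and 37.1, 29.9 and 27.7 in KO, which overlapped (log2 difference 0.36, adjusted p = 0.293). *Cnot3*, a subunit of CCR4-NOT, had 51.0, 57.1 and 53.9 FPKM in the RNP pool of WT and 21.2, 22.5 and 22.4 FPKM in KO. Its polysome values were 36.0, 39.2 and 42.6 FPKM in WT and 26.1, 20.4 and 12.5 in KO. These groups were apart, with more spread in KO, and *Cnot3* was not called in that pool.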
